A study of Homo sapiens with 20 samples.

Results

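The silencing of FOSL1, the gene of the transcription factor FRA1, was compared between the human melanoma cell lines A375 and 1205Lu, and the measurement described here is the difference between the responses of these lines. For each gene the log2 fold change of si-NT (a non-targeting siRNA) over si-FOSL1 was taken in A375 and in 1205Lu, and the 1205Lu value was subtracted from the A375 value. A positive difference therefore marks a gene whose level stood higher with FRA1 present in A375 than it did in 1205Lu, relative to the silenced cells of each line. All 12 RNA samples of the 20 samples in the series entered the fit, 3 in each of the groups A375 si-NT, A375 si-FOSL1, 1205Lu si-NT and 1205Lu si-FOSL1. Of 58870 genes in the table, 19452 passed the filter on low counts, and 14844 of these were protein-coding and are counted below. The other 8 samples were Cut&Run libraries of the same lines with no siRNA labelled, 3 with an antibody to FRA1 and 1 with IgG in each line, and were used as a second readout. No other treatment is labelled, each line is a single established line grown in RPMI medium with serum, and the dose and duration of the siRNA are not given in the sources used here. No label says that the replicates came from separate cultures, so the p-values measure the spread between these samples, which may be technical.

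FRA1 is a member of the FOS family that has no transactivation domain of the kind found in c-FOS and binds DNA as a dimer with JUN proteins, a complex known as AP-1. AP-1 reads the heptamer TGACTCA, whose reverse complement is TGAGTCA, in promoters and enhancers, and its output depends on its partners and on the other factors bound nearby. In melanoma, FRA1 accumulates downstream of the RAF, MEK and ERK kinases, and it is known as a marker of the dedifferentiated, AXL-high state.

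The lines entered the experiment with different lineage profiles and lost different amounts of FOSL1. FOSL1 stood at 413, 424 and 408 CPM (counts scaled to library size) in the A375 si-NT samples and at 25.7, 25.7 and 26.0 CPM in the A375 si-FOSL1 samples. In 1205Lu it stood at 492, 484 and 478 CPM with si-NT and at 69.4, 70.9 and 65.1 CPM with si-FOSL1. The groups did not overlap in either line, and 6.22% of the si-NT mean was left in A375 against 14.1% in 1205Lu. FOSL1 itself thus had a difference of 1.19 (standard error 0.0443, edgeR quasi-likelihood test, adjusted p = 1.24e-16), and the depth of silencing and the cell line cannot be told apart in this design. Among lineage genes, the melanocyte regulator SOX10 averaged 43.9 CPM in A375 si-NT and 912 CPM in 1205Lu si-NT, whereas MITF, the master regulator of pigment cells, averaged 52.1 and 3.54 CPM. The pigment genes MLANA, TYR and DCT stayed under 1 CPM in all 12 samples, and PMEL reached at most 1.38 CPM. AXL, SOX9 and EGFR, which mark the dedifferentiated state, were at no less than 188, 55.8 and 67.8 CPM in any sample. NGFR, a further marker of that state, was low, at 2.67 to 14.7 CPM. Among markers of other cell types, KRT5, KRT14, TP63 and DSG3 (keratinocyte), PTPRC and CD3E (leukocyte) stayed under 1 CPM in every sample. The endothelial markers PECAM1, CDH5 and VWF reached at most 1.33, 1.38 and 1.78 CPM. The fibroblast markers PDGFRA and COL1A1 reached 195 and 22.6 CPM, and the fibroblast sums are given below. The summed endothelial markers ran from 3.89 to 4.66 CPM in A375 si-NT and 6.38 to 7.64 in A375 si-FOSL1. They ran from 3.82 to 4.39 CPM in 1205Lu si-NT and 2.63 to 3.43 in 1205Lu si-FOSL1. The summed leukocyte markers, nearly all of it CD68, a lysosomal protein, ran from 78.2 to 80.1 CPM in A375 si-NT, 56.6 to 61.2 in A375 si-FOSL1, 17.4 to 18.5 in 1205Lu si-NT and 7.35 to 8.56 in 1205Lu si-FOSL1. The summed keratinocyte markers, nearly all of it the desmosomal protein DSP and KRT10 (2 of 9 markers at 1 CPM or more), ran from 113 to 120, 92.4 to 97.6, 62.0 to 63.8 and 49.6 to 58.3 CPM in the same order, and the part of these markers in the results was not tested. Since the samples are bulk RNA, fewer cells of a type and less RNA per cell cannot be told apart. Library totals ran from 20573412 to 32518903 counts.

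Silencing acted differently on a large share of genes, mostly by a small amount. The difference passed an adjusted p of 0.05 at 5751 of 14844 protein-coding genes (38.7%), of which 2947 were positive (19.9% of all tested) and 2804 negative (18.9%). The difference was under 0.5 in size at 69.1% of all genes tested, and the median over all genes was -0.0013. A difference of more than 1, a 2-fold change of the ratio between the lines, was passed by 777 genes (5.23%), 351 positive and 426 negative. Of the 777 genes, 320 had a mean under 1 CPM in both groups of a line, so that the gene was hardly expressed there. The other 457 reached 1 CPM in a group of each line.

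The 777 genes fell into classes by their response within each line. A change with silencing in A375 passed at 51.1% of all genes and in 1205Lu at 43.9%, with the same adjusted p of 0.05 and no limit on size. In 314 of the 777 genes the change passed in A375 only, and in 149 it passed in 1205Lu only. In 238 the lines moved in opposite directions, and in 37 they moved in the same direction, with 26 larger in A375 and 11 larger in 1205Lu. In 39 neither line passed alone. A limit on the difference selects for opposite directions, so 238 against 37 does not give how often the lines agreed. The same-direction count with no such limit is given at the end. Of the 314 genes that passed in A375 only, 142 were under 1 CPM in 1205Lu, and of the 149 genes that passed in 1205Lu only, 37 were under 1 CPM in A375. AXL, a receptor tyrosine kinase of invasive melanoma, fell from 711, 713 and 721 CPM to 195, 188 and 191 CPM on silencing in A375 and from 496, 492 and 508 CPM to 267, 261 and 278 CPM in 1205Lu. Its groups were apart in both lines, with a difference of 1.01 (standard error 0.0328, edgeR adjusted p = 7.31e-18). CDK6, a kinase that drives entry into S phase, fell by 1.03 on the log2 scale in A375 and by 0.22 in 1205Lu on silencing, with a difference of 0.81 (edgeR adjusted p = 8.60e-17). FSCN1, the actin-bundling protein fascin, had the larger response in 1205Lu, with log2 fold changes of 1.29 in A375 and 2.00 in 1205Lu and a difference of -0.71 (edgeR adjusted p = 1.37e-12).

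A group of 1265 genes (8.52% of those tested) moved in opposite directions, by the rule that the change passed in each line, with opposite signs, and the difference passed too. In 671 of them the level fell on silencing in A375 and rose in 1205Lu, and in 594 it rose in A375 and fell in 1205Lu. Most were small: 116 had a log2 fold change of more than 0.5 in each line (51 falling on silencing in A375, 65 rising) and 24 of more than 1 in each line (4 falling in A375, 20 rising). The 24 genes were mostly of low level, with a mean of at least 100 counts at 5 of them and 1 CPM or more in a group of each line at 9. With at least 10 counts required in every sample, 4 of the 24 remained. Without the 2 largest libraries, replicate 1 of 1205Lu si-NT and of A375 si-FOSL1, 15 genes passed the limit of 1, 8 of them among the 24, and 92 passed the limit of 0.5.

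**Figure D1:**
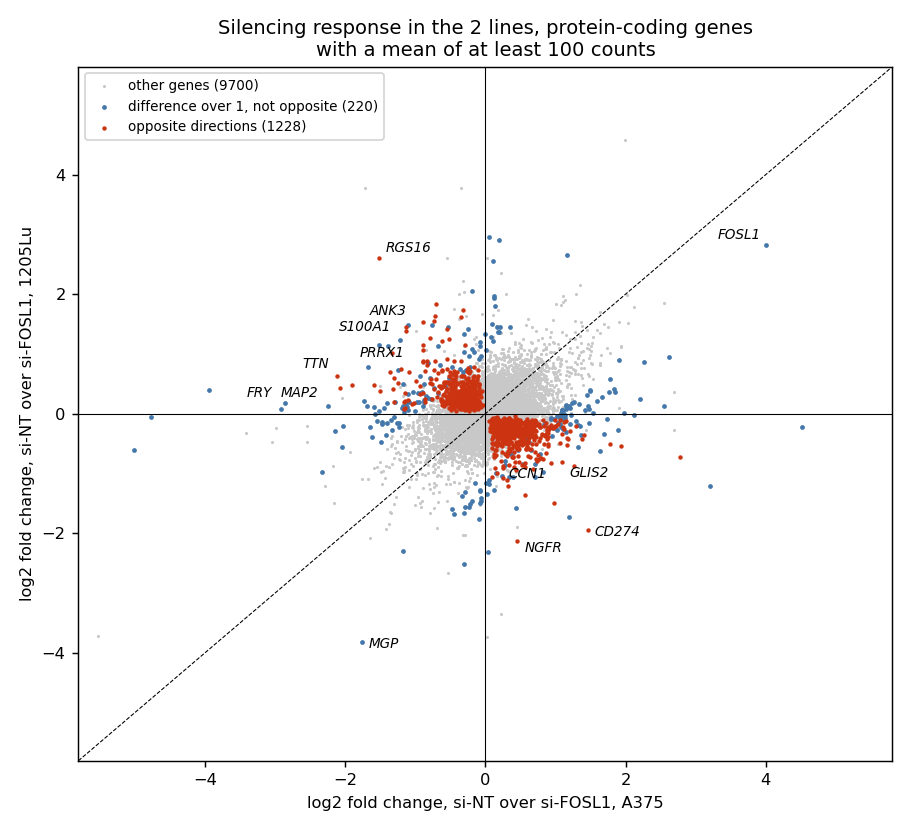
Each point is a protein-coding gene that averaged 100 counts or more over the 12 samples, placed by its log2 fold change of si-NT over si-FOSL1 in A375 (horizontal) and in 1205Lu (vertical); the dashed line marks equal responses. The 1228 red genes of opposite direction fill the upper left and lower right corners and mostly lie near the centre, with CD274, NGFR and RGS16 farther out.

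Of the genes that FRA1 silencing lowered in A375 and raised in 1205Lu, CD274 is given first. CD274 (ENSG00000120217.14; GRCh38 chromosome 9, 5450503 to 5470566, plus strand) encodes PD-L1, the ligand that restrains T cells through PD-1. It stood at 37.0, 37.98 and 39.4 CPM in A375 si-NT and at 15.1, 12.6 and 13.7 CPM in A375 si-FOSL1. The 1205Lu levels were 0.399, 0.401 and 0.740 CPM with si-NT, against 1.85, 2.05 and 2.01 CPM after silencing. The groups did not overlap within either line, and every 1205Lu sample was below every A375 sample. The 1205Lu si-NT samples held 12, 9 and 18 counts, so the 1205Lu side of the difference rested on few counts. The log2 fold changes were 1.46 in A375 and -1.95 in 1205Lu, a difference of 3.41 (standard error 0.249, edgeR adjusted p = 4.88e-11).

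NGFR, the low-affinity neurotrophin receptor of neural crest-like melanoma cells, stood at 9.05, 7.79 and 6.46 CPM in A375 si-NT and at 5.24, 5.68 and 6.11 CPM in A375 si-FOSL1. Levels in 1205Lu were 3.19, 2.67 and 3.496 CPM with si-NT, against 14.7, 12.99 and 13.2 CPM after silencing. The A375 groups were narrowly apart and the 1205Lu groups widely, for a difference of 2.58 (standard error 0.200, edgeR adjusted p = 1.50e-10).

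GLIS2, a zinc finger factor related to GLI, stood at 55.8, 60.9 and 59.3 CPM in A375 si-NT and at 28.5, 27.4 and 26.2 CPM in A375 si-FOSL1. In 1205Lu it stood at 20.3, 22.2 and 20.97 CPM with si-NT and at 38.2, 36.7 and 35.4 CPM with si-FOSL1. A375 thus had the higher level with si-NT and 1205Lu with si-FOSL1, and the difference was 1.90 (standard error 0.0806, edgeR adjusted p = 1.55e-15). RBPMS2, an RNA-binding protein, and MYEOV also passed with opposite signs, with differences of 1.92 and 1.804. Of the remaining genes with the largest positive differences, FST, which encodes the activin antagonist follistatin, fell by 1.73 on the log2 scale in A375 and did not pass in 1205Lu (log2 fold change -0.08, edgeR adjusted p = 0.34). MGP, the matrix Gla protein, rose on silencing in both lines, with log2 fold changes of -1.76 in A375 and -3.82 in 1205Lu.

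The reverse pattern, a rise on silencing in A375 and a fall in 1205Lu, held for RGS16, S100A1 and ANK3 among the genes with the largest negative differences. RGS16, which switches off signalling by G proteins, stood at 2.71, 3.48 and 4.02 CPM in A375 si-NT and at 9.19, 9.02 and 11.3 CPM in A375 si-FOSL1. The 1205Lu levels were 5.36, 5.87 and 5.22 CPM with si-NT, against 0.925, 0.938 and 0.813 CPM after silencing. No groups overlapped within a line, and the difference was -4.13 (standard error 0.257, edgeR adjusted p = 2.37e-12). S100A1, a calcium-binding protein used as a melanocytic marker, stood at 1.27, 1.31 and 1.04 CPM in A375 si-NT and at 3.31, 1.79 and 2.63 CPM in A375 si-FOSL1. For 1205Lu the values were 192, 180 and 192 CPM with si-NT, against 71.4, 71.9 and 73.7 CPM after silencing. The A375 side of its difference of -2.52 (standard error 0.194, edgeR adjusted p = 1.27e-10) therefore rested on few counts.

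ANK3, which encodes the membrane scaffold ankyrin-G, stood at 36.0, 35.3 and 35.5 CPM in A375 si-NT and at 65.0, 65.2 and 68.7 CPM in A375 si-FOSL1. Levels in 1205Lu were 6.65, 7.17 and 6.42 CPM with si-NT, against 2.58, 2.37 and 2.06 CPM after silencing. Silencing thus widened the distance between the lines at this gene, with a difference of -2.42 (standard error 0.124, edgeR adjusted p = 6.95e-14). MAP2, a microtubule-associated protein of neurons, and TTN, the giant sarcomere protein titin, had the same directions with smaller values in 1205Lu: their log2 fold changes were -2.07 and -2.11 in A375 and 0.43 and 0.64 in 1205Lu. FRY, a scaffold of NDR kinases, rose on silencing in A375 (log2 fold change -2.85) and did not pass in 1205Lu (0.19, edgeR adjusted p = 0.16). Among called genes that averaged 100 counts or more and reached 1 CPM in a group of each line, AC009412.1 had the most negative difference, -4.71, with 0, 0 and 1.08 CPM in A375 si-NT. Its value rested on that near-empty group and was -10.9 without A375 si-NT replicate 3. ZNF385D, a zinc finger gene, had a difference of -2.60 with 6 to 463 counts per sample.

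**Figure D2:**
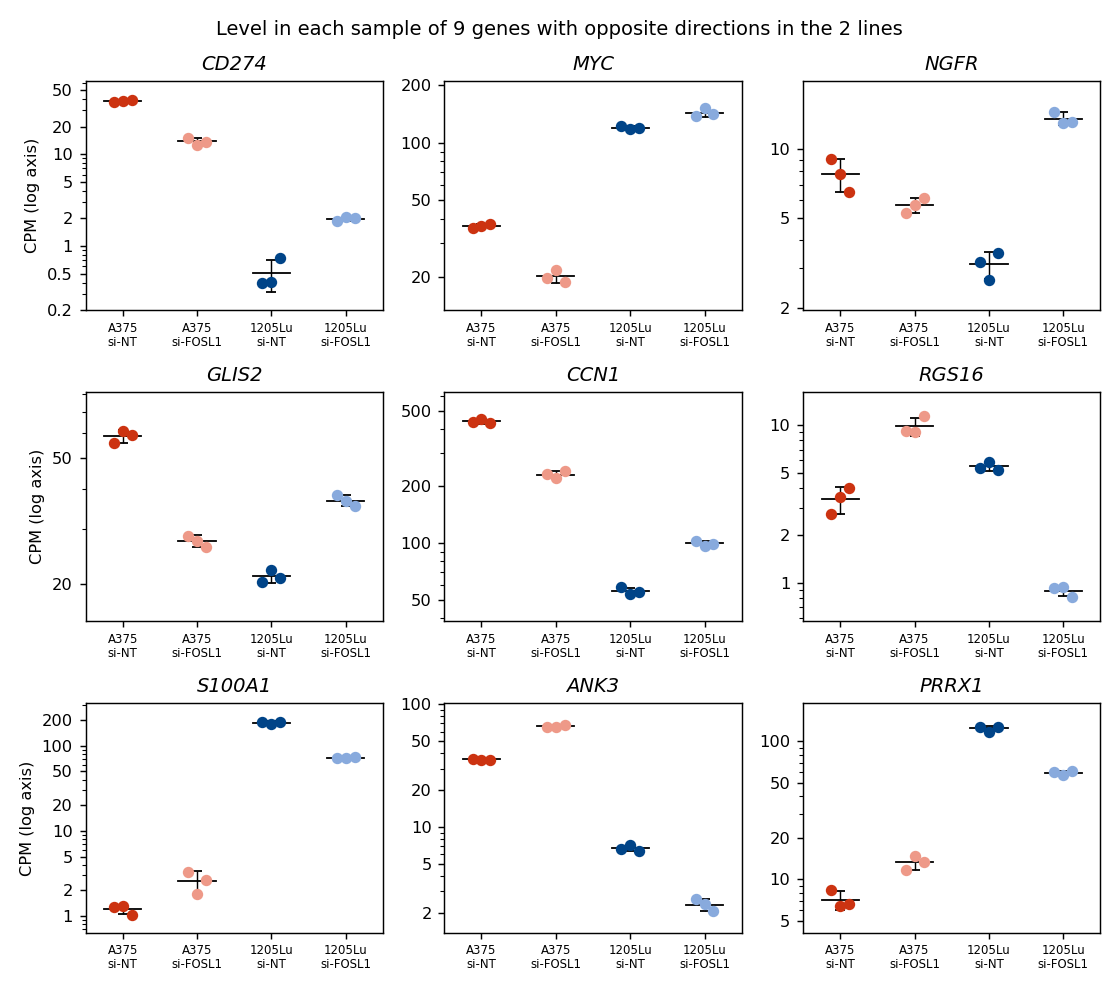
Points are single samples in CPM on a log axis, 3 per group, with the mean as a line and the SD as a bar, for 9 genes that moved in opposite directions. CD274, MYC, NGFR, GLIS2 and CCN1 fell on silencing in A375 and rose in 1205Lu, and RGS16, S100A1, ANK3 and PRRX1 did the reverse.

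Other genes that moved in opposite directions by more than 1 in each line included HRK, a pro-apoptotic BH3-only protein, at 7 to 60 counts per sample, with log2 fold changes of 1.61 and -1.15. DIO2, the deiodinase that activates thyroid hormone (3 to 173 counts), and ANOS1, the extracellular protein anosmin (0 to 404 counts), rose on silencing in A375 and fell in 1205Lu. CSF1R, the receptor of macrophage colony-stimulating factor, had 14, 17 and 11 counts in A375 si-NT, 46, 34 and 22 in A375 si-FOSL1, 7, 6 and 5 in 1205Lu si-NT and 1, 0 and 0 in 1205Lu si-FOSL1, so that its fitted difference of -4.60 depends on the prior count of the fit and is not a measured size. ARMCX5-GPRASP2, a readthrough transcript, shares exons with its neighbours, so its reads cannot be assigned with certainty. Its 1205Lu si-FOSL1 samples held 0, 13 and 0 counts, and its fitted difference of -4.45 became -9.79 without the second of them, so it is not a measured size either.

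The distance between the lines was not smaller after silencing at most genes. Over all genes tested the median distance between the lines, on the log2(CPM + 1) scale, was 0.595 with si-NT and 0.612 with si-FOSL1, and the distance was smaller with si-FOSL1 at 47.5% of genes. Among the 1265 genes of opposite direction the medians were 0.684 and 0.796, and the distance shrank at 43.6%. Among the 116 genes with more than 0.5 in each line they were 1.27 and 1.82, and the distance shrank at 34.5%, with 40 genes of 116. The 1265 and the 116 genes were chosen on these same values, so their medians and shares are not independent of that choice.

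The Cut&Run libraries gave FRA1 occupancy at the promoters of these genes in cells with no labelled siRNA, a readout that the RNA comparison did not use. Counts in peaks were unequal, at 3354095 to 5316527 in the A375 FRA1 samples and 583750 to 897407 in the 1205Lu FRA1 samples. The IgG samples held 383994 in A375 and 314569 in 1205Lu. Sequencing depth and strength of FRA1 signal were not told apart. Shares of genes with a peak therefore cannot be set against each other between the lines. FRA1 replicates 2 and 3 of 1205Lu did not differ beyond the sampling noise (p = 0.328 by a chi-square test over 8327 peaks, with a statistic of 1.01 per degree) and were counted as 1 sample. A peak was called enriched when each FRA1 sample of the line held 10 counts or more and their mean was 4 or more times the IgG count after 1 was added to it, and was placed at a promoter within 3000 bases of a start site. By this rule 50.8% of the 1265 genes of opposite direction had an enriched promoter peak in A375 (643 genes, 95% exact binomial interval 48.0 to 53.6%) and 11.3% in 1205Lu (143 genes, 9.61 to 13.2%), and these intervals cover counting error only. Over genes that averaged 100 counts or more the shares were 51.6% and 11.3% for the genes of opposite direction and 46.3% and 8.62% for all genes. By direction, 51.6% of the 671 genes that fell on silencing in A375 had an A375 peak, and 50.0% of the 594 that rose, a contrast that was not tested.

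The height of the peaks was compared between the lines. Of 53281 peaks tested between the lines by edgeR, 25.9% were higher in A375 and 22.5% higher in 1205Lu at an adjusted p of 0.05. At all promoters together 14.5% of peaks were higher in A375 and 28.2% in 1205Lu. The promoter peaks of the 671 genes that fell on silencing in A375 gave 14.5% and 29.3%, and those of the 594 genes that rose gave 11.8% and 36.8%, and the contrast between these directions was not tested. Over all peaks, 11964 were higher in 1205Lu, whereas 6119 passed the enrichment rule there. Many peaks counted as higher in 1205Lu were therefore not enriched over IgG, and these shares are not shares of FRA1-bound peaks. A peak at AC009412.1 held 15, 15 and 16 counts in the 1205Lu FRA1 samples against 21 with IgG. Its log2 ratio was -1.02 (edgeR adjusted p = 0.00577). At CD274, the peak centred at -3190 bases from the nearest start site held 318, 539 and 409 counts in the A375 FRA1 samples against 20 with IgG, and 5, 6 and 7 counts in the 1205Lu FRA1 samples against 5 with IgG. The log2 ratio of A375 over 1205Lu was 3.54 (edgeR adjusted p = 5.97e-12), and the 1205Lu counts were about those of their IgG control.

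The AP-1 heptamer lay within 100 bases of the peak centre in 29.2% of all peaks and in 18.4% of promoter peaks. Among the 1265 genes of opposite direction, 14.2% had an enriched promoter peak with the heptamer, against 11.4% of all genes tested. Over genes that averaged 100 counts or more the shares were 14.3% and 12.2%, a contrast that was not tested. The sites below are at 6 genes that moved in opposite directions, 3 of each direction, picked by hand among sites outside annotated exons, and are shown because the same heptamer stands at genes of either direction. They are read from GRCh38 on the plus strand of the chromosome, 61 bases each, with the heptamer in capitals.
ITGA5, chr12:54421239-54421299, upstream of the gene in an intron of GPR84-AS1: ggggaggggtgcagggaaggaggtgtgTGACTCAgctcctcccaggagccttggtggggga
NRP2, chr2:205685396-205685456, in an intron of NRP2 upstream of a further start site: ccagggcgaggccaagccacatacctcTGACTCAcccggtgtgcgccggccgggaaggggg
TRPV2, chr17:16419220-16419280, in an intron of TRPV2 upstream of a further start site: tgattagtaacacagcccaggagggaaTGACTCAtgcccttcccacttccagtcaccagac
IGF1R, chr15:98896956-98897016, in an intron of IGF1R upstream of a further start site: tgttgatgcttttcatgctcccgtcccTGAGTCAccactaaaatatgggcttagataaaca
MAP2K3, chr17:21282449-21282509, between genes: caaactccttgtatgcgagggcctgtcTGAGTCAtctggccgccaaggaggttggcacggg
MAFK, chr7:1537332-1537392, in an intron of MAFK upstream of a further start site: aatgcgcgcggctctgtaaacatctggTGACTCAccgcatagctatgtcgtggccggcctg

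The first 3 genes rose on silencing in A375 and fell in 1205Lu, and the other 3 did the reverse. ITGA5, the alpha chain of the fibronectin receptor, stood at 166, 160 and 166 CPM in A375 si-NT, 250, 253 and 235 CPM in A375 si-FOSL1, 77.1, 71.4 and 74.2 CPM in 1205Lu si-NT and 51.3, 53.3 and 50.9 CPM in 1205Lu si-FOSL1. The groups were apart within each line, with a difference of -1.11 (edgeR adjusted p = 8.55e-15). NRP2, a coreceptor of semaphorins and VEGF, had log2 fold changes of -0.47 and 0.51, and TRPV2, a calcium-permeable channel, of -0.58 and 0.53. IGF1R, the receptor of insulin-like growth factor 1, had log2 fold changes of 0.13 and -0.60, MAP2K3, a kinase that activates p38, of 0.60 and -0.50, and MAFK, a small MAF protein, of 0.50 and -0.36. The peak around the IGF1R heptamer held 527, 806 and 653 counts in A375 and 119, 286 and 284 in 1205Lu, against 13 and 5 with IgG, and was enriched in both lines. That around the TRPV2 heptamer held 348, 571 and 425 counts in A375 and 69, 123 and 99 in 1205Lu, against 17 and 22 with IgG. The ITGA5 peak around its heptamer held 18, 44 and 27 counts in A375 and 3, 0 and 4 in 1205Lu, so it passed the limit only in A375. The peaks around the NRP2, MAP2K3 and MAFK heptamers also passed only in A375. Of the sites printed, only those of IGF1R and TRPV2 lay in peaks enriched in both lines. In the RefSeq promoter windows of 250 bases before to 50 after a start (GRCh38.p14), the heptamer on either strand was in 3.66% of the 1583 windows matched to genes of opposite direction, 3.71% of the 16937 windows of all genes tested and 4.95% of all 35116 windows.

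**Figure D3:**
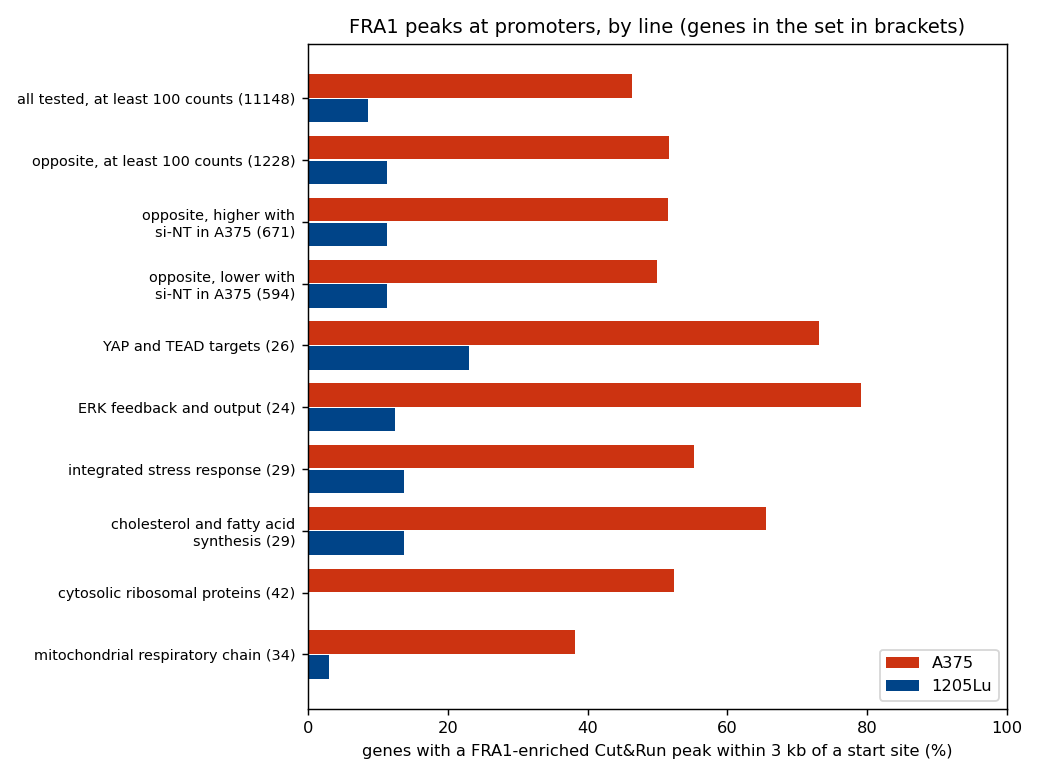
Bars give the share of genes in each set with an enriched FRA1 Cut&Run peak within 3 kb of a start site, in A375 (red) and 1205Lu (blue), with the number of genes in brackets. The shares of genes of opposite direction stand near those of all genes with at least 100 counts, at 51.6% against 46.3% in A375, and the shares of either direction stand side by side.

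Functions were then described with 35 lists of known genes, each by how many of its tested members had a difference that passed and by its median, to be read against the 19.9% positive and 18.9% negative of all genes and their median difference of -0.0013. Lists of the cell division programme moved in the same direction in both lines. E2F and DNA replication genes had medians of 0.62 in A375 and 0.64 in 1205Lu, and 6 of 40 differed in each direction, no more than the background. Mitosis and spindle genes had a median of 0.23 in A375 and 0.45 in 1205Lu, and 24 of 40 had a negative difference and 4 a positive one. Of these, the kinetochore protein CENPF and the kinesin KIF18A rose on silencing in A375 and fell in 1205Lu, with log2 fold changes of -0.11 and 0.62 for CENPF and of -0.23 and 0.36 for KIF18A.

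**Figure D4:**
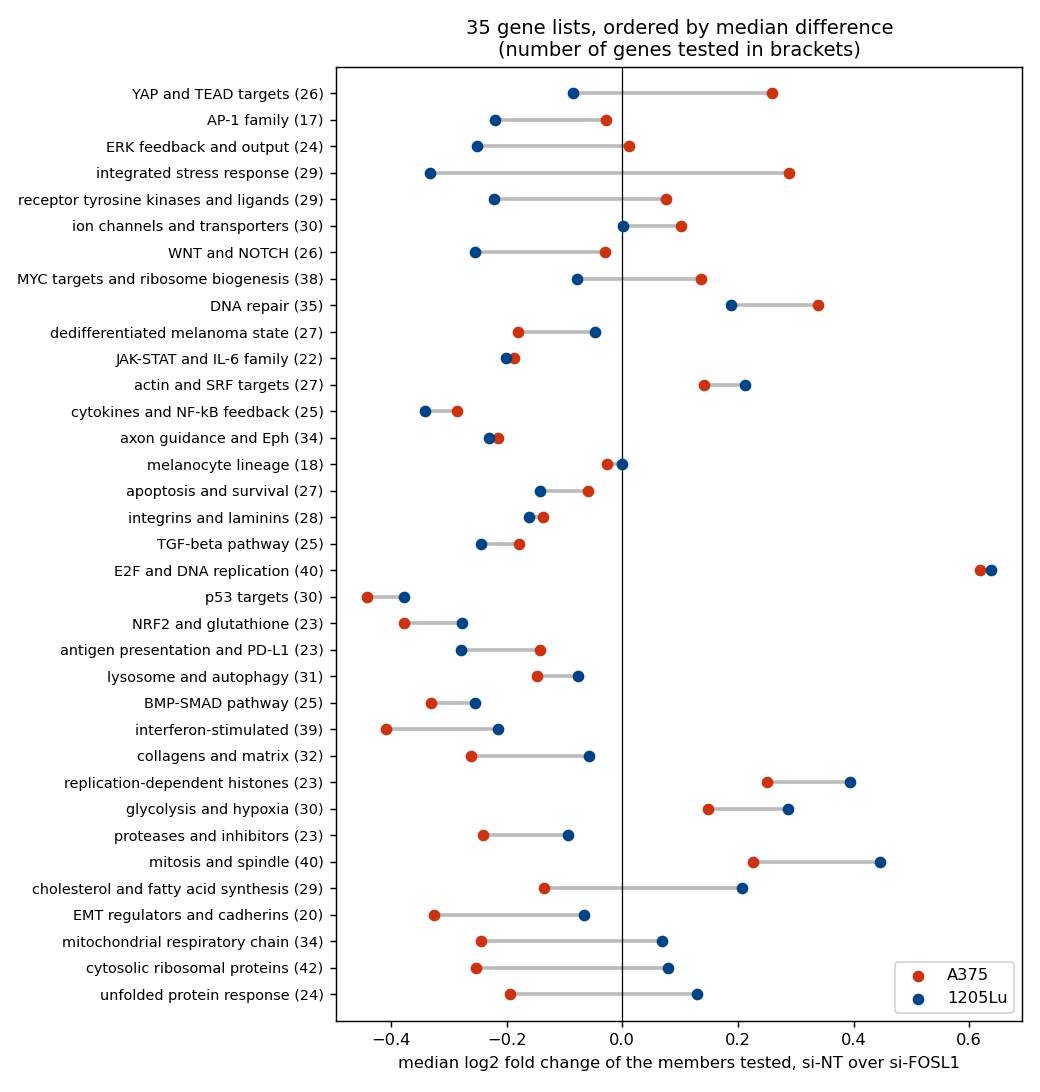
For each of 35 gene lists, the median log2 fold change of si-NT over si-FOSL1 of its tested members is shown in A375 (red) and in 1205Lu (blue), ordered by the median difference with the number of genes in brackets. The medians of the integrated stress response, the ribosomal proteins, the respiratory chain, cholesterol synthesis and the unfolded protein response fell on opposite sides of 0 in the lines. So did those of the YAP and TEAD, MYC and ribosome biogenesis, receptor tyrosine kinase and ERK feedback lists. The medians of E2F and DNA replication nearly coincided.

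The ribosomal protein genes shared a direction. All 42 cytosolic ribosomal protein genes tested had a negative difference, from -0.54 to -0.10 with a median of -0.32. All 42 rose on silencing in A375 (median -0.25), whereas in 1205Lu 24 fell and 8 rose (median 0.08), so that 24 of 42 (background 8.52%) moved in opposite directions. RPS19, a protein of the small ribosomal subunit, stood at 338, 336 and 323 CPM in A375 si-NT and at 402, 394 and 402 CPM in A375 si-FOSL1. In 1205Lu it stood at 247, 247 and 253 CPM with si-NT and at 203, 203 and 210 CPM with si-FOSL1. The groups did not overlap within a line although the changes were small, and the difference was -0.54 (standard error 0.0331, edgeR adjusted p = 1.63e-12). RPL32 of the large subunit had log2 fold changes of -0.32 and 0.17. Nuclear-encoded subunits of the mitochondrial respiratory chain followed with 25 of 34 negative and 0 positive (median -0.29), 24 rising on silencing in A375 and 13 falling in 1205Lu. UQCRC1 of complex III had log2 fold changes of -0.29 and 0.31, and COX5B of complex IV of -0.33 and 0.24.

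Transcript length moved with these lists. The median canonical transcript was 981 bases long for the ribosomal proteins and 1249.5 for the respiratory chain, against 3458 for all genes tested. With all genes split into 5 classes of equal size, the median difference was -0.129 in the class of shortest transcripts (up to 1873 bases) and 0.0517 in the class of longest. By GC content it ran from -0.0928 in the lowest class to 0.0956 in the highest. After the median of genes of like length and GC content was subtracted, the median difference was -0.17 for the ribosomal proteins and -0.17 for the respiratory chain. The share of counts from mitochondrial genes was 10.3 to 10.5% in A375 si-NT, 10.2 to 10.3% in A375 si-FOSL1, 9.85 to 10.0% in 1205Lu si-NT and 8.85 to 8.95% in 1205Lu si-FOSL1, and its part in these differences was not tested.

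In the opposite direction stood the genes that build ribosomes. Of 38 MYC targets and ribosome biogenesis genes, 23 had a positive and 2 a negative difference, with medians of 0.14 in A375 and -0.08 in 1205Lu and a median difference of 0.24. MYC, the transcription factor that drives ribosome production, stood at 36.0, 36.6 and 37.6 CPM in A375 si-NT and at 19.8, 21.8 and 18.7 CPM in A375 si-FOSL1. The 1205Lu levels were 123, 118 and 120 CPM with si-NT, against 138, 152 and 141 CPM after silencing. It thus fell on silencing in the line where it was low and rose where it was high, with a difference of 1.13 (standard error 0.0673, edgeR adjusted p = 9.81e-13). RRP1B, a nucleolar processing factor, and POLR1A, the largest subunit of RNA polymerase I, followed with log2 fold changes of 0.39 and 0.28 in A375 and of -0.14 and -0.13 in 1205Lu.

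**Figure D5:**
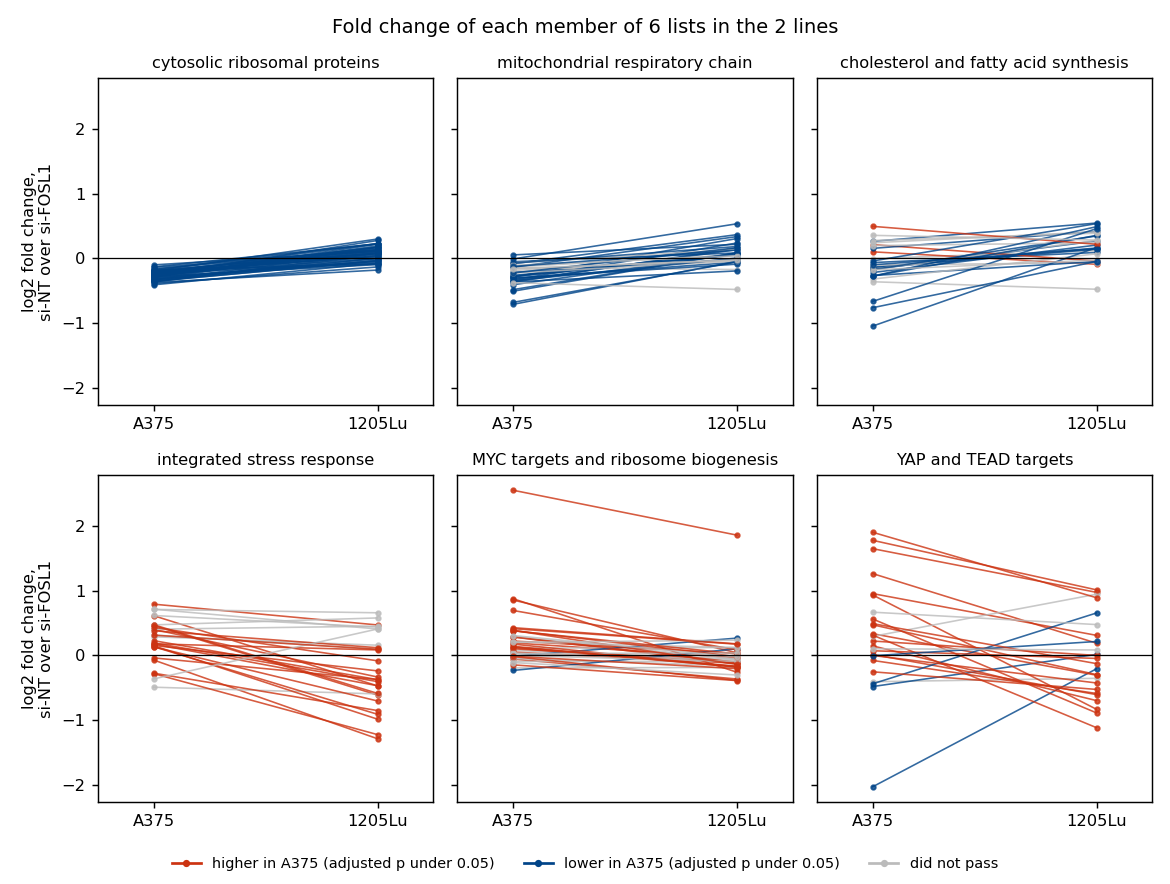
Each line joins the log2 fold changes of 1 gene in A375 and in 1205Lu, for 6 lists, in red for a positive difference that passed, blue for a negative one and grey where the test was not passed. All 42 ribosomal protein genes sloped upward from A375 to 1205Lu, and the 20 of 29 integrated stress response genes that passed sloped downward.

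The integrated stress response, the programme led by ATF4 when translation initiation is held back, differed in 20 of 29 genes, all positive, and 9 of these moved in opposite directions. Its median was 0.29 in A375 and -0.33 in 1205Lu. PPP1R15A, the phosphatase subunit that reverses the block of translation, stood at 48.9, 50.6 and 54.5 CPM in A375 si-NT and at 33.3, 35.2 and 32.3 CPM in A375 si-FOSL1. For 1205Lu the values were 215, 223 and 212 CPM with si-NT, against 300, 299 and 301 CPM after silencing. The groups were apart in each line, with a difference of 1.08 (standard error 0.0528, edgeR adjusted p = 2.32e-14). DDIT4, an inhibitor of mTORC1, had log2 fold changes of 0.47 and -0.59, WARS, a tRNA synthetase, of 0.14 and -0.91, and SLC3A2, a chain of the large amino acid transporter, of 0.13 and -0.70. ATF4 itself, singled out after its values were seen, had log2 fold changes of 0.18 and -0.47, a difference that also passed. ASNS, PHGDH and PSPH of the list, which make asparagine and serine and were also chosen after their values were seen, had positive log2 fold changes in both lines and differences that did not pass.

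The unfolded protein response of the endoplasmic reticulum had the reverse pattern, with 15 of 24 genes negative and 3 positive, and medians of -0.20 in A375 and 0.13 in 1205Lu. The chaperones HSP90B1 and CALR and the disulfide isomerase PDIA4 rose on silencing in A375 and fell in 1205Lu, with log2 fold changes in A375 of -0.27, -0.19 and -0.25 and in 1205Lu of 0.18, 0.23 and 0.19. The secreted stress protein MANF did the same, at -0.20 and 0.30. Cholesterol and fatty acid synthesis genes had 16 of 29 negative and 3 positive, and 10 of the 16 rose on silencing in A375 and fell in 1205Lu. ABCA1, which exports cholesterol from the cell, stood at 17.2, 17.8 and 17.98 CPM in A375 si-NT and at 36.9, 37.0 and 35.6 CPM in A375 si-FOSL1. Levels in 1205Lu were 152, 155 and 150 CPM with si-NT, against 133, 140 and 135 CPM after silencing. The change was large in A375 and slight in 1205Lu, with log2 fold changes of -1.04 and 0.17. STARD4, a sterol carrier, ELOVL6, a fatty acid elongase, and FADS1, a desaturase, had differences of -1.12, -0.76 and -0.63.

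Genes of growth factor and Hippo signalling stood on the positive side. Of 26 targets and members of the YAP and TEAD pathway, which answers to cell shape and tension, 18 were positive and 4 negative, with a median difference of 0.56 and medians of 0.26 in A375 and -0.09 in 1205Lu. CCN1, a matricellular protein and a classical YAP target, stood at 438, 451 and 429 CPM in A375 si-NT and at 231, 220 and 239 CPM in A375 si-FOSL1. In 1205Lu it stood at 58.3, 53.7 and 55.4 CPM with si-NT and at 102, 96.9 and 99.2 CPM with si-FOSL1. The groups did not overlap within a line, and the difference was 1.76 (standard error 0.0483, edgeR adjusted p = 3.16e-19). NUAK2, a kinase of the AMPK family, and DLC1, a RhoGAP, had differences of 1.45 and 1.43, whereas NT5E, the ectoenzyme CD73, moved the other way with log2 fold changes of -0.44 and 0.66.

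Of 24 ERK feedback and output genes, 13 were positive and 6 negative, with a median difference of 0.40. EPHA2, an ephrin receptor, had log2 fold changes of 0.25 and -0.47, and the ERK pathway inhibitor SPRY4 of -0.43 and 0.24. Of 29 receptor tyrosine kinases and ligands, 11 were positive and 4 negative. EGFR had log2 fold changes of 0.64 and -0.15 and MET, the receptor of hepatocyte growth factor, of 0.20 and -0.35. Of 17 AP-1 family genes tested, 8 were positive and 0 negative, with a median difference of 0.46. The small MAF proteins MAFF, MAFK and MAFG and the factor ATF5 all fell on silencing in A375 and rose in 1205Lu. MAFF stood at 14.9, 13.9 and 15.5 CPM in A375 si-NT, 8.27, 8.64 and 9.51 CPM in A375 si-FOSL1, 12.3, 14.5 and 12.9 CPM in 1205Lu si-NT and 21.1, 21.8 and 21.2 CPM in 1205Lu si-FOSL1. The si-NT levels of the lines overlapped and the silenced levels did not, and the difference was 1.45 (edgeR adjusted p = 1.42e-09).

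The lists of adhesion and invasion had members in both directions. Of 28 integrins and laminins, 6 were positive and 11 negative, and 4 moved in opposite directions each way. ITGB3, the beta chain of the vitronectin receptor, stood at 9.54, 8.27 and 8.95 CPM in A375 si-NT, 16.2, 15.3 and 13.4 CPM in A375 si-FOSL1, 437, 445 and 443 CPM in 1205Lu si-NT and 309, 314 and 317 CPM in 1205Lu si-FOSL1. It followed ITGA5 in direction, with a difference of -1.26 (edgeR adjusted p = 5.47e-13). Of 20 EMT regulators and cadherins, 3 were positive and 7 negative. PRRX1, a homeobox factor of mesenchymal cells, stood at 8.41, 6.37 and 6.59 CPM in A375 si-NT, 11.7, 14.8 and 13.4 CPM in A375 si-FOSL1, 127, 118 and 127 CPM in 1205Lu si-NT and 59.8, 57.1 and 60.8 CPM in 1205Lu si-FOSL1. Its groups were apart in each line, and its difference of -1.96 (edgeR adjusted p = 5.25e-13) stood beside -1.95 for CDH6, a cadherin of the kidney and neural crest, and -0.56 for ZEB1, a repressor of E-cadherin. Of 23 proteases and inhibitors, 6 were positive and 13 negative. MMP1, an interstitial collagenase, did not pass in A375 (log2 fold change -0.19) and fell on silencing in 1205Lu (2.05), where it held at most 1.29 CPM in any sample. Of 32 collagens and matrix genes, 7 were positive and 9 negative, with COL12A1 at log2 fold changes of 0.48 and -0.46 and the collagen-modifying enzyme PLOD2 at -0.16 and 0.78.

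In the immune lists, 6 of 23 antigen presentation genes were positive and 4 negative. Besides CD274, the peptide transporter TAP2 and the immunoproteasome subunit PSMB8, neighbours on chromosome 6, fell on silencing in A375 and rose in 1205Lu, with log2 fold changes of 0.57 and 0.26 in A375 and of -0.31 and -0.46 in 1205Lu. Of 39 interferon-stimulated genes, 9 were positive and 8 negative, near the background on each side. ISG20, an exonuclease, rose on silencing in A375 and fell in 1205Lu, with a log2 fold change of 0.74 in size in each line. IL24, a cytokine of the IL-10 family, did not pass in A375 (log2 fold change 0.03) and rose on silencing in 1205Lu from 0.233, 0 and 0.247 CPM to 1.27, 0.714 and 0.622 CPM. Of 26 WNT and NOTCH genes, 6 were positive and 5 negative, the 6 all of opposite direction. NOTCH3 and NOTCH1, 2 receptors, and LEF1, a nuclear effector of WNT, had differences of 1.17, 0.80 and 0.78.

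The summed fibroblast markers rose on silencing in A375 and stayed level in 1205Lu. The summed level of 9 such markers was 36.6 to 40.1 CPM in A375 si-NT, 75.8 to 78.8 CPM in A375 si-FOSL1, 199 to 207 CPM in 1205Lu si-NT and 198 to 207 CPM in 1205Lu si-FOSL1. The 1205Lu sum was nearly all PDGFRA, which averaged 192 CPM with si-NT and 184 CPM with si-FOSL1. PDGFRB rose on silencing in A375 from 501, 506 and 533 counts to 1229, 919 and 925. In 1205Lu PDGFRB rose from 221, 128 and 159 counts to 284, 338 and 329. COL3A1, the chain of type III collagen, rose on silencing in A375 from 0.950, 1.15 and 1.24 CPM to 9.06, 9.56 and 9.76 CPM, and did not pass in 1205Lu. DCN reached at most 1.48 CPM and LUM 1.92 CPM in any sample, and the part of these markers in the other differences was not tested.

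The remaining lists had members in both directions. Of 35 DNA repair genes 14 were positive and 6 negative, of 30 glycolysis and hypoxia genes 7 and 15, of 27 actin and SRF targets 11 and 9, and of 34 axon guidance and Eph genes 11 and 6. Of 30 ion channels and transporters 10 were positive and 11 negative, of 27 genes of the dedifferentiated state 10 and 8, of 31 lysosome and autophagy genes 10 and 10, and of 23 replication-dependent histones 2 and 9. The TGF-beta pathway had 8 and 9 of 25, the BMP-SMAD pathway 7 and 7 of 25, the p53 targets 6 and 7 of 30, and NRF2 and glutathione genes 6 and 7 of 23. JAK-STAT and IL-6 family genes had 8 and 5 of 22, cytokines and NF-kB feedback 7 and 5 of 25, apoptosis and survival genes 7 and 4 of 27, and the melanocyte lineage 6 and 3 of 18. ATP2B4, a calcium pump, and SLC16A3, a lactate exporter, rose on silencing in A375 and fell in 1205Lu, with differences of -0.85 and -1.57. PLK2, a polo-like kinase, and ULK1, which starts autophagy, fell in A375 and rose in 1205Lu, with differences of 0.75 and 0.93.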

How the data were processed

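The authors trimmed the RNA reads with cutadapt (1.8.1), aligned them with STAR (2.7.7a) to GRCh38 and deposited RSEM (1.3.0) expected counts per gene from a strand-specific kit. For Cut&Run they deposited counts in consensus peaks, aligned with Bowtie2 (2.4.1) and called with MACS2 (2.1.1.20160309). Here genes were filtered by filterByExpr over 4 groups of 3 samples, scaled by TMM and fitted with edgeR (4.0.16, R 4.3.3) by its quasi-likelihood test, with Benjamini-Hochberg adjustment over 19452 genes. Differences over 1 at an adjusted p under 0.05 were called. Peaks were tested in the same way. CPM are from the filtered counts after TMM. Scripts were tested on simulated data. Genes were named as: 5 chosen genes, 20 of the 24 genes of opposite direction over 1 in each line with the largest smaller change, the 8 largest differences each way among genes that averaged 100 counts or more, with at least 1 CPM in a group of each line, and up to 4 members of each list. Some genes that these rules name are not reported here. The genes and lists were chosen with earlier results of these data known. Alternatives were DESeq2 (1.42.0), limma-voom (3.58.1), other scalings and filters, a replicate block and leaving out samples. Library totals ran from 20573412 to 32518903 counts.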

Additional observations from a re-analysis of the deposited data

Results flagged for a closer look

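The responses to silencing differed between the lines, by the test of the difference itself, at 1265 genes that moved in opposite directions, and the targeted gene was among those with unequal responses, with a difference of 1.19 for FOSL1. The genes that moved by more than 1 in each line and had a positive difference included CD274 (3.41) and HRK (2.77). Negative differences were found for CSF1R (-4.60), ARMCX5-GPRASP2 (-4.45), RGS16 (-4.13), CCDC141 (-3.94), DIO2 (-3.63), ANOS1 (-3.46), AOAH (-3.44), RASSF9 (-3.33), UBE2QL1 (-3.30), KLHL30 (-3.14), AGMO (-3.11), OLFML1 (-3.03), SHOC1 (-2.95), SH2D1B (-2.80), ZNF385D (-2.60), S100A1 (-2.52) and TNFRSF14 (-2.23). Most of them had fewer than 10 counts in at least 1 sample, and their sizes carry that uncertainty. The value of SHOC1 was -4.61 without 1205Lu si-FOSL1 replicate 1, and that of ARMCX5-GPRASP2 was -9.79 without 1205Lu si-FOSL1 replicate 2.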

How the results depend on the processing

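Leaving out each replicate in turn gave 708 to 782 interaction calls (a difference over 1), against 777, and 1135 to 1199 opposite-sign genes, against 1265. The calls were 440 with at least 10 counts in every sample, 5751 with no fold limit and 457 with at least 1 CPM in a group of each line, the last chosen after seeing the data. Genes that passed in 1 line only numbered 463, and 192 with at least 10 counts in every sample and 3108 with no fold limit, under which 1222 in place of 37 moved in the same direction. The share of genes of opposite direction with an A375 promoter peak was 50.8%, and 64.0% at 2 times IgG, 26.4% at 8 times IgG, 42.5% within 1 kb and 47.0 to 55.4% without each Cut&Run replicate. Genes of opposite direction over 1 numbered 24, and 4 with at least 10 counts in every sample. With the replicate block there were 744 calls, 1255 genes of opposite direction, 37 of the same direction, 439 in 1 line only, 597 list members and a FOSL1 difference of 1.18. The deviations of same-numbered samples had correlations of 0.0144 to 0.119 in A375 and -0.0989 to -0.0474 in 1205Lu. With 3 samples in each group these values cannot settle whether the numbers pair the samples. Of the alternatives run for the named genes, 3354 kept direction and side of the threshold, 81 kept direction only, and none reversed. Upper-quartile scaling moved the share of genes of opposite direction that fell in A375 on silencing from 53% to 43.3%, and totals alone to 61.3%. Length and GC subtraction and the omission of the 2 largest libraries were also chosen after seeing the data. The cause of these changes was not tested.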
